A study of Mus musculus with 17 samples.

Results

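Loss of the receptor tyrosine kinase EphB4 from fibroblasts after a bleomycin lung injury was described here through 8 RNA-Seq libraries out of the 17 in the series. Each library came from the cultured lung cells of 1 mouse. All mice were Ephb4f/f; Col1a2-CreERT2 animals, which carry floxed Ephb4 alleles together with a tamoxifen-dependent Cre recombinase driven from a Col1a2 promoter, so that recombination is limited to cells in which that promoter is active. The 4 Ephb4 CKO mice were given 4-hydroxytamoxifen at 4 weeks of age (1 mg per day for 5 days) and the 4 Ephb4 control mice were given corn oil, so the 2 groups share alleles and Cre and differ in the inducer. All 8 received bleomycin at 6 weeks of age (1.2 U/kg, into the trachea), and lungs were taken at day 14 for culture in serum-containing medium and 1 passage before total RNA was collected. PBS-treated mice of both kinds (4 control, 5 CKO) supplied the remaining 9 libraries and were used for the shared estimate of spread and for the difference of effects. Of 55421 genes in the deposited table, 10481 exceeded 10 CPM (counts scaled to library size) in at least 2 of the 17 libraries. The 22 extracellular matrix (ECM), endoplasmic reticulum (ER) cargo and transport genes singled out by the study were set aside, which left 10459 genes.

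The cultures were labelled primary fibroblasts, and their markers were checked first. Summed over 14 fibroblast markers, levels ranged from 8255 to 15070 CPM in the control libraries and from 1071 to 4095 CPM in the CKO libraries. Summed over 19 macrophage markers, they ranged from 1626 to 22370 CPM in the controls and from 27670 to 46780 CPM in the CKO libraries, and no marker of either list was at 0 in any of the 8 libraries. Both marker sums separated the groups without overlap. For fibroblast markers the sum and the mean log2 CPM ordered the CKO libraries differently. CKO library 4 had a sum of 1601 CPM but the lowest mean log2 CPM, 1.39. CKO library 3 had a sum of 1071 CPM and a mean log2 CPM of 4.11. A sum therefore does not show how much fibroblast RNA a library held. In the 4 PBS controls the fibroblast marker sum was 463.9, 1684, 1891 and 9063 CPM, and in the CKO PBS libraries it was 1344 to 3122 CPM. The macrophage marker sum was 11400 to 49290 CPM in the PBS controls and 26190 to 48290 CPM in the CKO PBS libraries. Both CKO bleomycin ranges thus lay within those of the PBS controls. In bulk RNA, fewer cells of a type and less RNA per cell cannot be told apart. Control library 1 stood apart by its macrophage marker sum (1626 CPM against 16490 or more in the other 3 controls) and by a high epithelial marker sum (1179 CPM). In 3 of the 8 libraries (control 2, CKO 1 and CKO 2) the sex-chromosome genes went against the labelled sex, and several results below are also given without these libraries. Total counts were 87693246 to 120554468 per library, and libraries are numbered in accession order. Controls all carried animal numbers of the 12 series, whereas CKO libraries 3 and 4 carried numbers of the 11 series. Without the 3 libraries with opposed sex genes, CKO libraries 3 and 4 are set against controls 1, 3 and 4. In that fit genotype and number series cannot be told apart after bleomycin. Number series 12 alone keeps CKO libraries 1 and 2, whose sex genes both go against their labels.

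EphB4 belongs to the Eph family, the largest family of receptor tyrosine kinases. Its preferred ligand, ephrin-B2, is itself anchored in the membrane, so signals pass in both directions between touching cells. A fibroblast activated by injury turns into a secretory cell. It charges transfer RNAs with amino acids, makes glycine and proline for collagen, threads the growing chains into the ER through a translocon, folds and hydroxylates them with the help of chaperones, and sends them to the Golgi in COPII vesicles, while COPI vesicles return escaped ER proteins. Transcription factor ATF4 controls amino acid supply and tRNA charging, and the unfolded protein response controls ER folding capacity. Macrophages, the other main cell of the injured alveolus, instead take up lipid, matrix debris and surfactant and break them down in lysosomes.

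**Figure D1:**
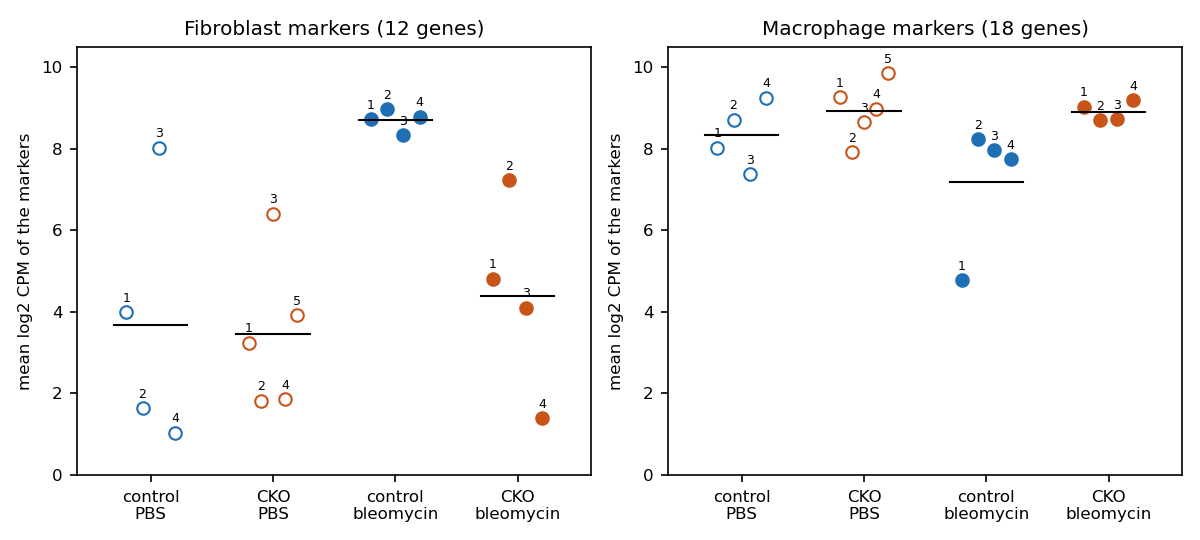
Mean log2 CPM of 12 fibroblast markers (left) and 18 macrophage markers (right) in each of the 17 libraries by group, with 1 numbered point per library, open for PBS and filled for bleomycin, and a line at the group mean. The 4 CKO bleomycin libraries lie below the 4 control bleomycin libraries for fibroblast markers and above them for macrophage markers, and control bleomycin library 1 is the lowest for macrophage markers.

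Ephb4 itself was measured at 66.01, 13.3, 35.8 and 41.0 CPM in the control libraries and 14.2, 9.66, 10.3 and 4.999 CPM in the CKO libraries. CKO library 1 lay above control library 2, so the groups overlapped, and Ephb4 was 3.995-fold lower in the CKO mean (log2 fold change -1.998, SE 0.79, adjusted p = 0.220 by the quasi-likelihood test of edgeR, adjusted over all genes kept). After PBS the log2 difference was -0.73, and the difference between the bleomycin and the PBS effects had an adjusted p = 0.916. With the fibroblast marker score as a covariate the Ephb4 difference was -0.996, and with the macrophage score -0.37. Without the libraries with opposed sex genes, among them control library 2 and CKO library 1, it was -2.68. The Ephb4 transcript was lower along with the fibroblast markers, and their part in its difference was not tested beyond these covariates. Of the 9 Eph receptors and ephrins kept, 8 were lower in the CKO mean, with a median of -1.77 that turned to 0.078 under the macrophage score. Efnb1, a B-class ephrin, stood at 33.3, 16.5, 22.2 and 24.97 CPM in the control libraries and 4.43, 11.9, 7.13 and 2.11 CPM in the CKO libraries, with no overlap (log2 fold change -1.92, SE 0.80, adjusted p = 0.223). Ephb3 showed log2 fold change -2.39, SE 1.12, adjusted p = 0.247, and Epha3 log2 fold change -3.97, SE 2.102, adjusted p = 0.278, with the lowest Epha3 value in CKO library 4, at 0.0119 CPM.

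Across the genes kept, 0 passed an adjusted p of 0.05 by edgeR's quasi-likelihood test (smallest adjusted p 0.187). Before adjustment, 2119 genes, or 20.2% of those tested, had a p under 0.05, with 1157 higher in CKO (11%) and 962 lower (9.18%). The 4 CKO values lay wholly above the 4 control values for 1148 genes (11%) and wholly below them for 1275 genes (12.2%). The log2 fold change was above 0 for 50.7% of genes and below 0 for 49.3%. DESeq2, a second count model, called 399 genes at an adjusted p under 0.05 (3.81%), of which 145 were higher (1.38%) and 254 lower (2.42%). The count at an unadjusted p under 0.05 was 1040 without control library 1 and 1159 without CKO library 4. It was 1697 without the 3 libraries whose sex genes go against their labels, 337 with the macrophage marker score as a covariate and 406 with the fibroblast score. Neither score overlapped between the bleomycin groups. The fibroblast score was at most 7.23 in CKO and at least 8.33 in controls, and the macrophage score at most 8.23 in controls and at least 8.70 in CKO. Fits with a score therefore cannot fully separate genotype from marker level, and differences kept or lost under them are a description only. In what follows, "higher" and "lower" describe CKO against control after bleomycin, "p under 0.05" refers to the unadjusted edgeR p, an adjusted p is that of edgeR unless DESeq2 is named, and gene lists are read against these shares and against the median over all genes, 0.01 on the log2 scale. Genes named for smallest p or largest fold were required to show no overlap, so for them it is no result.

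**Figure D2:**
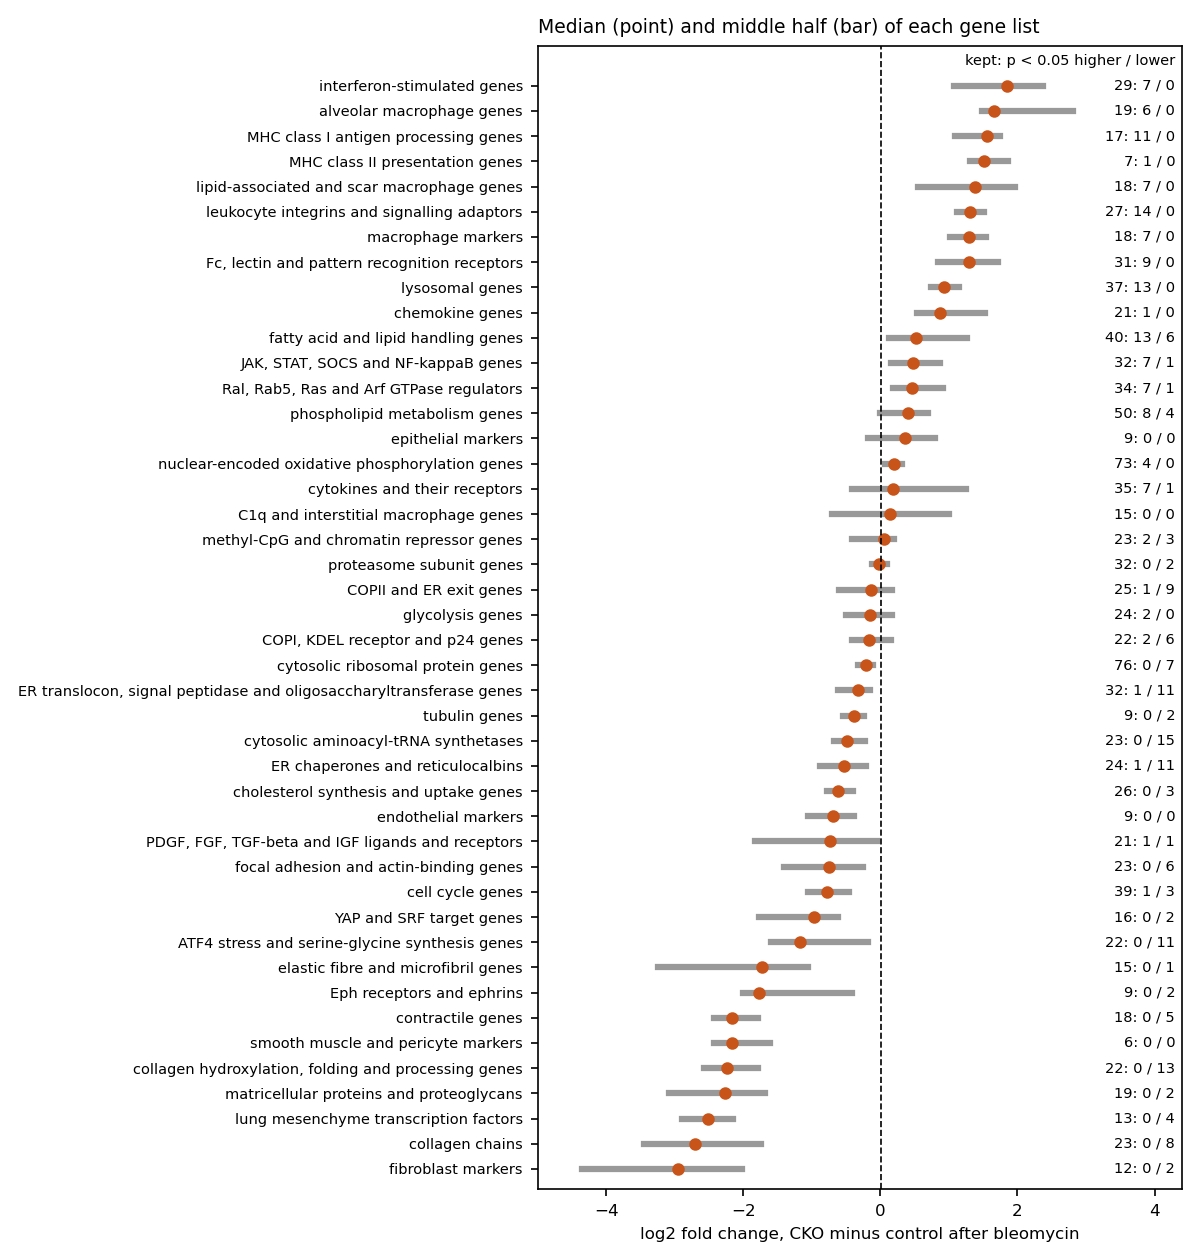
Log2 fold change (CKO minus control after bleomycin, horizontal axis) of each gene list, with a point at the median and a bar from the lower to the upper quartile of the members kept. The numbers at the right give the members kept and those higher and lower at p under 0.05, the dashed line is the median of all genes kept, and leukocyte lists lie to its right and matrix, contractile and secretory lists to its left.

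The genes that charge transfer RNAs were lower as a group. All 23 cytosolic aminoacyl-tRNA synthetases and their cofactors were kept, 21 of them were lower, 15 at p under 0.05 and 0 higher at that threshold, and the median log2 fold change was -0.49. DESeq2 called 10 of them. The neighbouring list of ATF4 stress and serine-glycine synthesis genes had 11 of 22 members lower at p under 0.05, with a median of -1.17. Many of these genes are read by ATF4 through a C/EBP-ATF response element (CARE), searched here as TGATGNAA on both strands. The upstream sequences of 3 members are shown because they carry this element just before the RefSeq start, in 5′ to 3′ direction of the gene with the element in capitals (RefSeq, GRCm38.p6).
Asns, chr6:7693214-7693243, minus strand: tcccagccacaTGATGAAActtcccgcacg
Tars, chr15:11399666-11399758, minus strand: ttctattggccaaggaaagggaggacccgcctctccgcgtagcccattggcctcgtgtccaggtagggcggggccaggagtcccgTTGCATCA
Gars, chr6:55037901-55038000, plus strand: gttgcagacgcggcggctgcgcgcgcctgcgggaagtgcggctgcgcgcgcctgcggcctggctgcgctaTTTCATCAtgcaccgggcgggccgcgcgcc
The element lies 16 to 23 bases before the start of Asns, 8 to 15 before that of Tars and 23 to 30 before that of Gars. In windows from 250 bases before to 50 after the start, it was present for 5 of 15 synthetase genes with a promoter entry (33.3%) and for 6 of 20 genes of the ATF4 list (30.0%), against 221 of 8029 genes kept with an entry (2.75%) and 1219 of 27025 genes in the promoter table (4.51%). The 5 synthetase genes that held it (Aars, Gars, Iars, Tars and Yars) were all lower at p under 0.05, with a median of -0.71, and of the 10 without it 5 were, with a median of -0.38. In the ATF4 list 3 of 6 holders and 6 of 14 others were. The element was held by 4.02% of all genes lower at p under 0.05 and by 4.35% of those higher. A match of letters is a description and says nothing about binding.

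Tars, the threonyl-tRNA synthetase, was at 206, 129, 128 and 129 CPM in the control libraries and 75.3, 71.0, 69.7 and 65.2 CPM in the CKO libraries. All 4 CKO values were below the lowest control, and the gene was 2.11-fold lower (log2 fold change -1.08, SE 0.22, adjusted p = 0.187). Aars, which charges alanine tRNA, was at 341, 293, 269 and 277 CPM in the control libraries and 209.5, 148, 178 and 187 CPM in the CKO libraries, again without overlap (log2 fold change -0.71, SE 0.15, adjusted p = 0.187). Yars (tyrosine) had a log2 fold change of -0.67 (SE 0.18, adjusted p = 0.195) and Gars (glycine) of -0.68 (SE 0.19, adjusted p = 0.196). The same direction was seen, in values named after they were seen, for Cars (-0.56), Nars (-0.49), Lars (-0.60), Kars (-0.50), Eprs (-0.77), Iars (-0.71) and Vars (-0.71). A further set lay near 0, with Rars at -0.15 (SE 0.18), Dars at -0.07 (SE 0.19), Qars at -0.07 (SE 0.12), Wars at -0.07 (SE 0.23) and both phenylalanine subunits above it (Farsa 0.09, Farsb 0.15). The synthetases were thus not uniformly lower. Their median stayed below 0 with the macrophage score as a covariate (-0.34, 7 lower at p under 0.05), with the fibroblast score (-0.57, 12), without the 3 libraries with opposed sex genes (-0.59, 12) and without control library 1 (-0.42, 11).

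**Figure D3:**
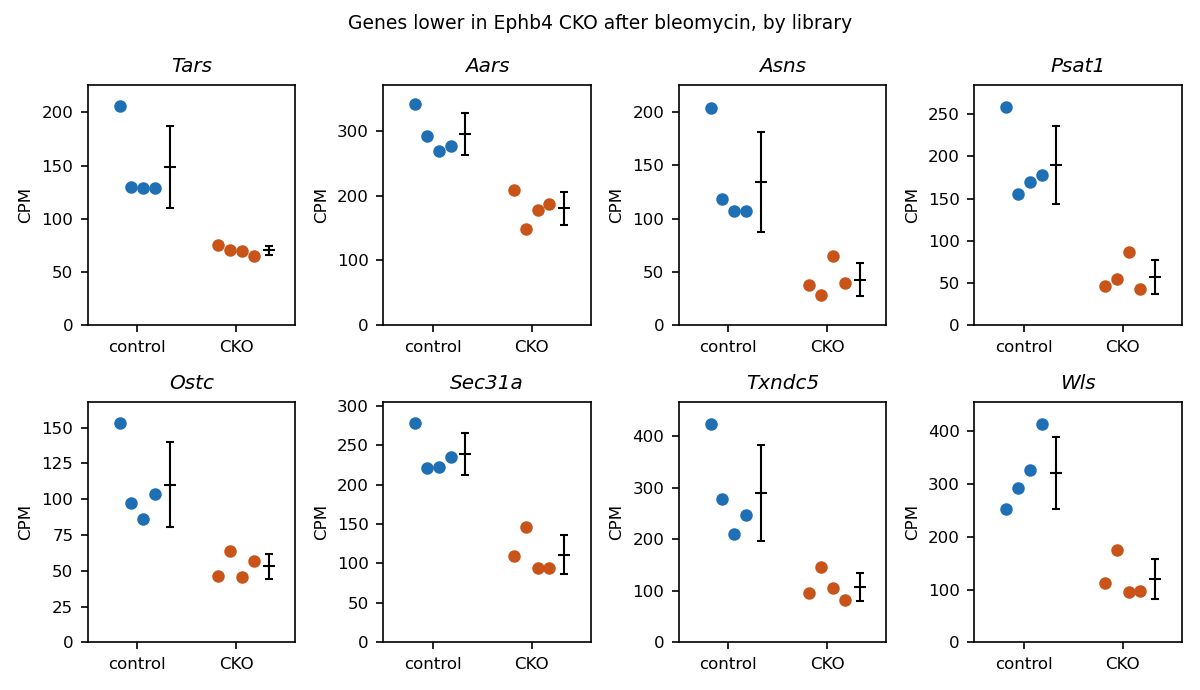
CPM (linear axis from 0) of 8 genes lower in CKO, with 1 point per library after bleomycin and a line at the group mean. For Tars, Aars, Asns, Psat1, Ostc, Sec31a, Txndc5 and Wls the 4 CKO points lie below the 4 control points, which the naming rule required for all but Psat1 and Txndc5.

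Amino acid synthesis followed the same direction. Asns, which makes asparagine, was at 204, 119, 108 and 107 CPM in the control libraries and 38.1, 28.1, 65.3 and 39.9 CPM in the CKO libraries, 3.14-fold lower with no overlap (log2 fold change -1.65, SE 0.36, adjusted p = 0.187, DESeq2 adjusted p = 0.00324). Psat1, the second enzyme of serine synthesis, was at 258, 156, 169 and 178 CPM in the control libraries and 45.9, 54.8, 86.8 and 42.5 CPM in the CKO libraries, and all 4 CKO values were again below the lowest control (log2 fold change -1.72, SE 0.41, adjusted p = 0.187). For both, control library 1 was the highest of the 8 libraries, and CKO library 3 the highest of its group. Aldh18a1, which starts proline synthesis from glutamate, had log2 fold change -1.60, SE 0.37, adjusted p = 0.187. Atf5, an ATF4-related transcription factor, was at 47.8, 62.0, 41.9 and 44.2 CPM in the control libraries and 26.3, 23.1, 12.1 and 19.9 CPM in the CKO libraries (log2 fold change -1.27, SE 0.30, adjusted p = 0.187). Further members, named after their values were seen, were Psph, the last step to serine (-1.47), Shmt2, the mitochondrial serine to glycine converter (-1.58), Slc7a5, a carrier of large neutral amino acids (-1.88), and Eif4ebp1, a brake on cap-dependent translation (-1.14), each lower at p under 0.05. Atf4 itself differed by -0.11 (SE 0.22, adjusted p = 0.771). Slc7a11, the cystine importer, which holds a CARE in its promoter window, was at 1.47 (SE 0.74, adjusted p = 0.263), opposite in sign to Asns. Asns kept a log2 difference of -0.95 with the macrophage score as a covariate, -1.36 with the fibroblast score and -1.45 without the 3 libraries with opposed sex genes. The effect on Asns after PBS was -0.53, and the 2 effects differed by -1.12 (adjusted p = 0.916).

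Most ER folding genes were lower in CKO. Of 24 ER chaperones and reticulocalbins, 20 were lower, 11 at p under 0.05 against 1 higher, with a median of -0.52. Txndc5, a disulfide isomerase of the ER, was at 424, 278, 210.3 and 248 CPM in the control libraries and 96.0, 147, 106 and 83.1 CPM in the CKO libraries, with no overlap (log2 fold change -1.42, SE 0.33, adjusted p = 0.187). Calu, a calcium-binding protein of the CREC family, was at 709, 525, 518 and 646 CPM in the control libraries and 216, 343, 250.2 and 244 CPM in the CKO libraries (log2 fold change -1.19, SE 0.28, adjusted p = 0.187). Pdia5, another disulfide isomerase, had log2 fold change -1.998, SE 0.51, adjusted p = 0.187, and Ckap4, an ER sheet protein, log2 fold change -2.22, SE 0.74, adjusted p = 0.209. Targets of the unfolded protein response varied. Hsp90b1 and Pdia6 were lower at p under 0.05, with log2 fold changes of -0.73 and -0.72, while Hspa5, the BiP chaperone, was at -0.49 (SE 0.31, adjusted p = 0.355), Calr at -0.14 (SE 0.32) and Hyou1 at -0.29 (SE 0.31), and these 5 were named after their values were seen. With the fibroblast score as a covariate Hspa5 was at -0.91, Calr at -0.66 and Hyou1 at -0.87. Ero1lb, an ER oxidase, was higher (1.056, adjusted p = 0.230). The chaperone promoters are shown for 2 members that were lower at p under 0.05 and hold the ER stress element (ERSE, in capitals), in the same form as above.
Hsp90b1, chr10:86705510-86705594, minus strand: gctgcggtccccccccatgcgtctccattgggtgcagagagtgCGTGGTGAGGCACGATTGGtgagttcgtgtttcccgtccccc
Pdia6, chr12:17266439-17266544, plus strand: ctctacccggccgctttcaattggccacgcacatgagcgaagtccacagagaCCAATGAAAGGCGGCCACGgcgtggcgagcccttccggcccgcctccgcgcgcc
The element lies 89 to 107 bases before the start of Hsp90b1, on the reverse strand, and 80 to 98 before that of Pdia6. It was present for 7 of 18 chaperone genes with a promoter entry (38.9%) against 12 of 8029 genes kept (0.149%). Among the 7 holders 2 were lower at p under 0.05 and the median was -0.49, whereas among the 11 without it 7 were, with a median of -0.70. The chaperone median was -0.53 with the macrophage score as a covariate (4 lower at p under 0.05), -0.59 with the fibroblast score (8) and -0.62 without the 3 libraries with opposed sex genes (10).

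Some genes for entry into the ER and exit from it were lower. Of 32 translocon, signal peptidase and oligosaccharyltransferase genes, 11 were lower at p under 0.05 and 1 higher, with a median of -0.33. Ostc, an accessory subunit that couples the oligosaccharyltransferase to the translocon, was at 153, 97.5, 86.2 and 104 CPM in the control libraries and 46.3, 63.6, 45.6 and 56.6 CPM in the CKO libraries (log2 fold change -1.05, SE 0.22, adjusted p = 0.187). Sec61b, of the translocon channel, had log2 fold change -0.81, SE 0.20, adjusted p = 0.187, and Stt3a, the catalytic subunit that glycosylates chains as they enter, log2 fold change -0.64, SE 0.17, adjusted p = 0.189. The second catalytic subunit, Stt3b, differed by -0.09 (SE 0.21), and Sec11c of the signal peptidase was higher (1.08, adjusted p = 0.218). Of 25 COPII and ER exit genes kept outside the study's own, 9 were lower and 1 higher at p under 0.05. At any p 10 of the 25 were higher, and the median was -0.14. Sec31a, of the outer COPII coat, was at 278, 221, 223 and 235 CPM in the control libraries and 109.8, 146, 94.0 and 94.7 CPM in the CKO libraries, without overlap (log2 fold change -1.11, SE 0.22, adjusted p = 0.187). Its partner Sec13 had a log2 fold change of -0.73 (SE 0.20, adjusted p = 0.196), the GTPase Sar1a of -0.72 (SE 0.19, adjusted p = 0.189) and Tfg, an organiser of ER exit sites, of -0.57 (SE 0.15, adjusted p = 0.193). Paralogous subunits lay on the other side of 0, with Sar1b at 0.28 (SE 0.21) and Sec24b at 0.16 (SE 0.16), neither past p of 0.05. The COPI, KDEL receptor and p24 list had 6 of 22 lower and 2 higher at p under 0.05. At any p 8 of the 22 were higher, and the median was -0.17. The list was led by Kdelr1, a retrieval receptor (log2 fold change -0.55, SE 0.18, adjusted p = 0.207), and Copz2, a coat subunit (log2 fold change -1.78, SE 0.65, adjusted p = 0.218). With the macrophage score as a covariate, 4 translocon, 5 COPII and 0 COPI genes were lower at p under 0.05, and with the fibroblast score 7, 5 and 2.

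The matrix genes outside the study's selection were lower, with a wide spread among CKO libraries. Of 23 collagen chains kept, 22 were lower, 8 at p under 0.05, with a median of -2.70. Col1a1, of type I collagen, was at 1535, 2269, 661 and 1285 CPM in the control libraries and 41.7, 159, 19.1 and 1.56 CPM in the CKO libraries (log2 fold change -4.70, SE 2.01, adjusted p = 0.228). The CKO values spanned from 1.56 CPM in library 4 to 159 CPM in library 2. Postn, a matricellular protein of injury fibroblasts, was at 74.3, 200.4, 355 and 627 CPM in the control libraries and 2.56, 40.5, 1.01 and 0.226 CPM in the CKO libraries (log2 fold change -4.83, SE 2.04, adjusted p = 0.227), again lowest in CKO library 4 and highest in CKO library 2. Sparc, a collagen-binding glycoprotein, showed log2 fold change -3.07, SE 1.204, adjusted p = 0.219, and Col14a1, of a fibril-associated collagen, log2 fold change -3.13, SE 1.176, adjusted p = 0.218. The hyaluronan synthase Has2 was at 315, 73.7, 132 and 209 CPM in the control libraries and 13.7, 7.52, 8.16 and 0.714 CPM in the CKO libraries (log2 fold change -4.60, SE 1.63, adjusted p = 0.211). Timp3, an inhibitor of matrix proteases that is itself bound in the matrix, had log2 fold change -4.77, SE 1.14, adjusted p = 0.187, Mgp, an inhibitor of calcification, log2 fold change -4.49, SE 1.89, adjusted p = 0.227, and Ncam1, an adhesion molecule, log2 fold change -4.54, SE 1.79, adjusted p = 0.220. Each of these 4 genes separated the groups completely, as the rule that named them by fold required. Of 15 elastic fibre genes kept, 14 were lower but 1 at p under 0.05, Efemp2, which assembles elastin (log2 fold change -1.72, SE 0.65, adjusted p = 0.218), and 6 were without CKO library 2. Every one of the 22 genes for collagen hydroxylation, folding and processing was lower, 13 at p under 0.05, among them Serpinh1, the collagen chaperone HSP47, at 1704, 1052, 901 and 1235 CPM in the control libraries and 134, 297, 82.5 and 17.4 CPM in the CKO libraries (log2 fold change -3.21, SE 1.17, adjusted p = 0.218). P4ha1, the prolyl hydroxylase subunit, had a narrower range within groups, at 432, 369, 359.9 and 471 CPM in the control libraries and 157, 188, 232 and 118 CPM in the CKO libraries (log2 fold change -1.23, SE 0.43, adjusted p = 0.211).

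The matrix lists differed along with the fibroblast markers, of which Col1a1 and Postn are also members. With the fibroblast score as a covariate the collagen median was -0.40 and the processing median -0.49, with 0 of 22 processing genes at p under 0.05. With the macrophage score they were -1.30 and -0.998. Without the 3 libraries with opposed sex genes they were -3.66 and -3.38. Without control library 1, 3 collagen chains and 6 processing genes were lower at p under 0.05.

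Genes of contraction and adhesion were lower as well. All 18 contractile genes were lower, 5 at p under 0.05, with a median of -2.16. The count was 1 without control library 1, 14 without CKO library 2 and 15 (median -4.40) without the 3 libraries with opposed sex genes. Summed over 9 smooth muscle and pericyte markers, levels were 541.1 to 611 CPM in the controls and 16.05 to 338 CPM in the CKO libraries, and their part in these values was not tested. Tpm4, a tropomyosin of non-muscle cells, was at 1121, 692, 734 and 807 CPM in the control libraries and 318, 634, 467 and 387 CPM in the CKO libraries (log2 fold change -0.89, SE 0.29, adjusted p = 0.207), and Cnn2, a calponin, had log2 fold change -1.76, SE 0.72, adjusted p = 0.223. In the focal adhesion list 6 of 23 were lower at p under 0.05, led by Zyx, the mechanosensitive LIM protein zyxin, at 296, 197, 160.4 and 137 CPM in the control libraries and 82.0, 147, 48.0 and 41.7 CPM in the CKO libraries (log2 fold change -1.31, SE 0.39, adjusted p = 0.197). Flna, an actin cross-linker, showed log2 fold change -0.75, SE 0.25, adjusted p = 0.210. Among 16 YAP and SRF target genes, 2 (Srf, log2 fold change -0.57, SE 0.20, adjusted p = 0.210, and Crim1, log2 fold change -1.87, SE 0.65, adjusted p = 0.211) were lower at p under 0.05, a share near the 9.18% of all genes. Of 13 lung mesenchyme transcription factors, 4 were, including Foxf1, a factor of the embryonic lung mesenchyme (log2 fold change -2.14, SE 0.90, adjusted p = 0.227), and Hoxa5 (log2 fold change -3.37, SE 1.57, adjusted p = 0.246). Without control library 1 0 of the 13 were, and with the fibroblast score as a covariate Foxf1 (0.068), Hoxa5 (0.067) and the list median (0.32) turned above 0. Of 21 growth factor ligands and receptors, 16 were lower, but at p under 0.05 1 was lower and 1 higher, a smaller share than among all genes. Tgfb3, a TGF-beta ligand, was lower at 111, 61.2, 62.5 and 75.7 CPM in the control libraries and 6.10, 25.9, 4.29 and 0.643 CPM in the CKO libraries (log2 fold change -3.07, SE 1.31, adjusted p = 0.228), whereas Met, the receptor for hepatocyte growth factor, was higher at 24.7, 44.9, 85.7 and 49.7 CPM in the control libraries and 184, 398, 158 and 553 CPM in the CKO libraries (log2 fold change 2.66, SE 0.85, adjusted p = 0.207). With the fibroblast score as a covariate the contractile median was -0.64 (-0.60 with the macrophage score), with 0 of 18 lower at p under 0.05.

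Leukocyte genes lay on the opposite side. All 18 macrophage markers kept were higher, 7 at p under 0.05 (2 without control library 1 and 1 in number series 12 alone), and Cybb, the catalytic subunit of the phagocyte oxidase, was at 89.5, 556, 727 and 582 CPM in the control libraries and 1361, 1398, 1962 and 3264 CPM in the CKO libraries (log2 fold change 2.03, SE 0.66, adjusted p = 0.207). Of 27 leukocyte integrins and signalling adaptors, 26 were higher, 14 at p under 0.05, with a median of 1.30. The oxidase partners were higher along with Cybb, as Cyba showed log2 fold change 1.59, SE 0.56, adjusted p = 0.211 and Ncf4 log2 fold change 1.92, SE 0.75, adjusted p = 0.219. In all 3 genes, control library 1 held the lowest value. Of 31 Fc, lectin and pattern recognition receptors all were higher, 9 at p under 0.05, among them Clec4d, a C-type lectin (log2 fold change 1.95, SE 0.79, adjusted p = 0.223), and Fcgr3, a receptor for immunoglobulin G (log2 fold change 1.177, SE 0.47, adjusted p = 0.220). Once the macrophage score was a covariate, 0 integrin and adaptor genes were higher at p under 0.05 and the median was 0.13, and the receptor median was 0.03. Without control library 1, 6 of the 27 integrin and adaptor genes and 3 of the 31 receptors were, and without the 3 libraries with opposed sex genes 7 and 7. The macrophage score averages leukocyte genes itself and did not overlap between the bleomycin groups (at most 8.23 in controls, at least 8.70 in CKO). Leukocyte medians near 0 under it are therefore a description only. The same holds for the lysosomal list below, which shares Ctss with the score.

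Alveolar macrophage genes were higher for all 19 members, 6 at p under 0.05, but unevenly across libraries. In number series 12 alone, which leaves out CKO libraries 3 and 4, the list median turned from 1.66 to -0.10 and Marco to -0.50. Marco, a scavenger receptor, was at 4.67, 15.8, 17.8 and 44.5 CPM in the control libraries and 24.01, 4.52, 739 and 486 CPM in the CKO libraries (log2 fold change 3.92, SE 1.30, adjusted p = 0.208), and Ear1, an eosinophil-associated ribonuclease, at 3.26, 2.21, 4.17 and 4.04 CPM in the control libraries and 8.72, 0.361, 578 and 18.2 CPM in the CKO libraries (log2 fold change 5.47, SE 2.07, adjusted p = 0.218). The high values came from CKO libraries 3 and 4 for Marco and from CKO library 3 for Ear1, while CKO library 2 lay below every control for both. Itgax, the CD11c integrin, followed another order (13.7, 395, 418 and 273 CPM in the control libraries and 856, 947, 485 and 1923 CPM in the CKO libraries, log2 fold change 1.94, SE 0.81, adjusted p = 0.225). The C1q and interstitial macrophage list had 0 of 15 at p under 0.05 in either direction, with 9 higher and 6 lower. Among scar macrophage genes 7 of 18 were higher at p under 0.05 (4 without control library 1), with Mmp12, the macrophage elastase, at 362, 635, 676 and 348 CPM in the control libraries and 2227, 9155, 1762 and 1850 CPM in the CKO libraries, and CKO library 2 far above the rest (log2 fold change 2.89, SE 1.03, adjusted p = 0.211). Lgals3, the galectin-3 gene, showed log2 fold change 1.98, SE 0.74, adjusted p = 0.218.

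Lysosomal genes were higher nearly throughout, 36 of 37, with 13 at p under 0.05 and a median of 0.93. Atp6v1b2, a subunit of the acidifying proton pump, was at 76.2, 261, 206 and 171 CPM in the control libraries and 480.5, 448, 356 and 785 CPM in the CKO libraries (log2 fold change 1.54, SE 0.50, adjusted p = 0.208). Ctsh, a cathepsin, was at 118, 96.9, 87.3 and 83.4 CPM in the control libraries and 250.3, 143, 299 and 221 CPM in the CKO libraries, with no overlap (log2 fold change 1.24, SE 0.43, adjusted p = 0.210). Ctsz showed log2 fold change 1.62, SE 0.59, adjusted p = 0.218 and Neu1, a sialidase, log2 fold change 1.02, SE 0.39, adjusted p = 0.219. The CACGTG E-box, the core of the site read by the lysosomal regulators TFEB and MITF, was present for 12 of 29 lysosomal genes with a promoter entry (41.4%) against 986 of 8029 genes kept (12.3%). The medians of genes with and without it were 0.91 and 1.01. Under the macrophage score as a covariate the lysosomal median was 0.10, and 0 genes were higher at p under 0.05. The count was 4 without control library 1 and 5 without the 3 libraries with opposed sex genes.

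Antigen presentation genes of class I were higher for all 17 members, 11 at p under 0.05, with a median of 1.55. H2-K1, a classical class I heavy chain, was at 226, 548, 349 and 286 CPM in the control libraries and 1700, 503, 1411 and 1063 CPM in the CKO libraries (log2 fold change 1.73, SE 0.65, adjusted p = 0.218). CKO library 2 lay within the control range, below control library 2, so the groups overlapped. B2m, the light chain, was at 419, 1598, 1325 and 973 CPM in the control libraries and 3998, 2156, 2962 and 3544 CPM in the CKO libraries, with no overlap (log2 fold change 1.55, SE 0.59, adjusted p = 0.218). The immunoproteasome subunits Psmb8 (log2 fold change 1.52, SE 0.57, adjusted p = 0.218) and Psmb9 (log2 fold change 1.75, SE 0.68, adjusted p = 0.219) had like folds, while the constitutive proteasome list had 0 of 32 higher and 2 lower at p under 0.05. H2 heavy chains are near-identical, and how coverage was divided between them is uncertain. Of 29 interferon-stimulated genes, 28 were higher and 7 at p under 0.05, with Oas1a, an antiviral oligoadenylate synthetase, at 4.29, 48.7, 17.3 and 15.5 CPM in the control libraries and 151, 43.4, 111 and 136 CPM in the CKO libraries (log2 fold change 2.37, SE 0.93, adjusted p = 0.219) and Slfn5, a Schlafen family gene, at 1.98, 72.7, 29.1 and 22.5 CPM in the control libraries and 288, 89.4, 184 and 168 CPM in the CKO libraries (log2 fold change 2.53, SE 0.89, adjusted p = 0.211). With the macrophage score as a covariate the class I median was 0.37 and the interferon median -0.01, with 0 class I genes at p under 0.05. Without control library 1, 2 class I and 0 interferon-stimulated genes were higher at p under 0.05, and without the 3 libraries with opposed sex genes 9 and 9 were.

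Of 35 cytokines and their receptors, 7 were higher and 1 lower at p under 0.05 (3 and 1 without control library 1). Il1rn, the interleukin-1 receptor antagonist, was at 37.9, 43.8, 34.1 and 33.3 CPM in the control libraries and 143, 173, 421 and 282 CPM in the CKO libraries, 6.83-fold higher with no overlap (log2 fold change 2.77, SE 0.81, adjusted p = 0.196). Il6st, the gp130 chain shared by interleukin-6 family receptors, was at 158, 408, 380.4 and 460.2 CPM in the control libraries and 135, 244, 64.4 and 83.3 CPM in the CKO libraries and was the single cytokine gene lower at p under 0.05 (log2 fold change -1.41, SE 0.44, adjusted p = 0.204). Receptors for GM-CSF were higher, as Csf2rb2 showed log2 fold change 1.70, SE 0.55, adjusted p = 0.207 and Csf2ra log2 fold change 1.502, SE 0.60, adjusted p = 0.220. In the JAK, STAT and NF-kappaB list 7 of 32 were higher and 1 lower at p under 0.05, led by the kinase gene Ikbkb (log2 fold change 0.58, SE 0.18, adjusted p = 0.207) and by Tyk2 (log2 fold change 0.84, SE 0.30, adjusted p = 0.211). Of 21 chemokine genes 1 was higher at p under 0.05, Ccl9 (log2 fold change 2.13, SE 0.90, adjusted p = 0.227), whose value in CKO library 3 stood above all others (3147 CPM).

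**Figure D4:**
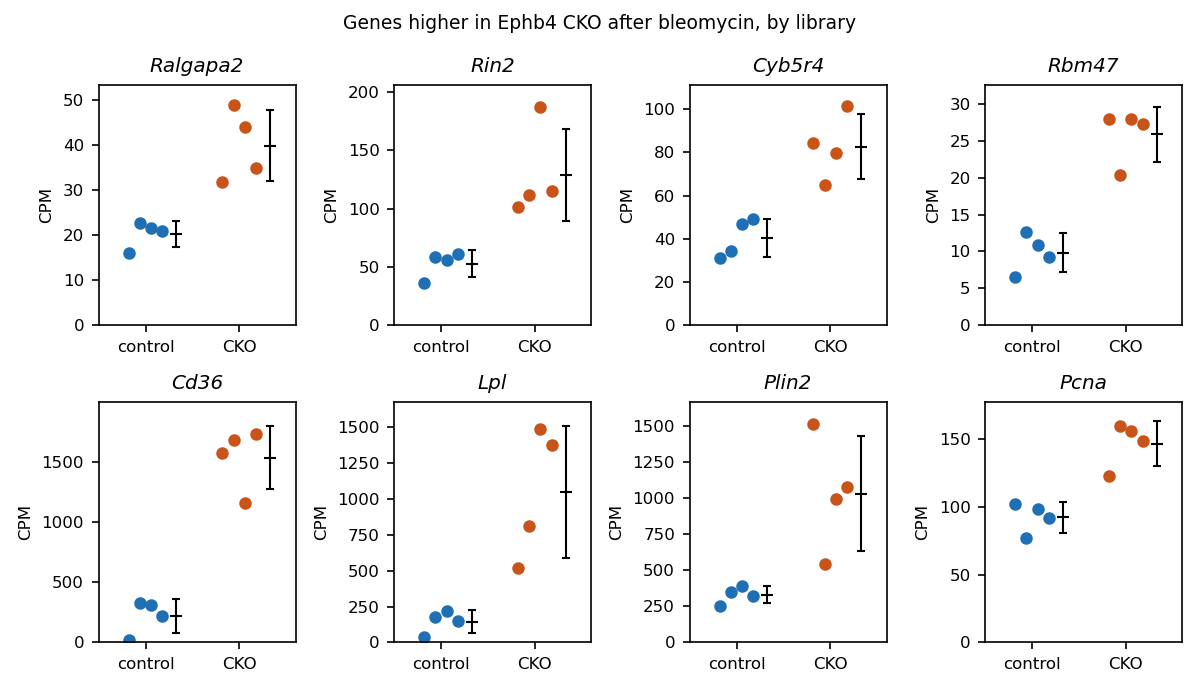
CPM (linear axis from 0) of 8 genes higher in CKO, with 1 point per library after bleomycin and a line at the group mean. The 4 CKO points lie above the 4 control points for each gene, which the naming rule required for all but Plin2 and Pcna. Control library 1 is the lowest point for every gene but Pcna.

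Of 40 fatty acid and lipid handling genes, 13 were higher and 6 lower at p under 0.05. Without control library 1 the counts were 5 and 7. Cd36, the fatty acid translocase and scavenger receptor, was at 24.1, 326, 310.3 and 218 CPM in the control libraries and 1573, 1679, 1153.9 and 1728 CPM in the CKO libraries, 6.98-fold higher with no overlap (log2 fold change 2.80, SE 0.68, adjusted p = 0.187, DESeq2 adjusted p = 0.00380). Lpl, lipoprotein lipase, was at 36.6, 176, 219.8 and 149 CPM in the control libraries and 522, 813, 1490 and 1373 CPM in the CKO libraries (log2 fold change 2.85, SE 0.74, adjusted p = 0.187). For both, control library 1 was lowest, and the lowest CKO value lay above the highest control. Plin2, a lipid droplet coat protein, was at 253, 352, 393 and 323 CPM in the control libraries and 1514, 544, 999 and 1081 CPM in the CKO libraries (log2 fold change 1.65, SE 0.51, adjusted p = 0.201). Acadl, a mitochondrial long-chain acyl-CoA dehydrogenase, had log2 fold change 0.88, SE 0.25, adjusted p = 0.196. The 6 lower genes, named after their values were seen, make, elongate, desaturate or activate fatty acids, namely Fasn (-1.41), Elovl6 (-1.95), Scd2 (-2.47), Fads1 (-1.16), Fads2 (-3.08) and Acsl3 (-1.67). Fads2 was at 99.9, 52.3, 118 and 129 CPM in the control libraries and 5.80, 36.4, 3.53 and 1.44 CPM in the CKO libraries, and CKO library 4 was lowest. Cholesterol synthesis genes were lower for 22 of 26, 3 at p under 0.05 (9 without the 3 libraries with opposed sex genes and 10 without CKO library 2), a share near the 9.18% of all genes, with Mvk, mevalonate kinase, showing log2 fold change -0.84, SE 0.29, adjusted p = 0.210 and Fdps, farnesyl diphosphate synthase, log2 fold change -1.20, SE 0.56, adjusted p = 0.245. Their median of -0.62 was -0.54 with the macrophage and -0.64 with the fibroblast score as a covariate. With those covariates Cd36 kept log2 differences of 1.43 and 2.07, and Lpl 1.65 and 1.98. Plin2 was at 0.74 and 0.78, Acadl at 0.72 and 0.26, and Fads2 at -1.18 and -1.31. None of the 6 lower genes was at p under 0.05 with either score, and in the whole list 3 and 2 were higher at that threshold.

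Phospholipid genes had 8 of 50 higher and 4 lower at p under 0.05. Pik3cb, a catalytic subunit of phosphoinositide 3-kinase, was at 16.8, 28.2, 33.1 and 32.2 CPM in the control libraries and 61.8, 70.7, 54.3 and 60.1 CPM in the CKO libraries, without overlap (log2 fold change 1.16, SE 0.28, adjusted p = 0.187). Lpin2, a phosphatidate phosphatase, showed log2 fold change 0.93, SE 0.24, adjusted p = 0.187, while Gpam, which adds the first acyl chain to glycerol phosphate, was lower (log2 fold change -0.67, SE 0.20, adjusted p = 0.197), as was the phospholipase gene Plcb3 (log2 fold change -0.74, SE 0.24, adjusted p = 0.208). Glycolysis genes had 2 of 24 higher at p under 0.05, Pfkfb4 (log2 fold change 1.15, SE 0.46, adjusted p = 0.220) and the leukocyte hexokinase Hk3 (log2 fold change 2.34, SE 0.96, adjusted p = 0.223), a share near the 11% of all genes, with a list median of -0.15. Of 73 oxidative phosphorylation genes 63 were higher, 4 of them at p under 0.05, by a median of 0.20.

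Among the 15 genes of smallest p in the higher direction, 2 regulate small GTPases. Ralgapa2 (chr2:146239879-146512344), the catalytic subunit of a GTPase-activating complex for Ral, was at 16.1, 22.6, 21.6 and 20.9 CPM in the control libraries and 31.8, 48.9, 44.0 and 35.0 CPM in the CKO libraries, 1.97-fold higher with no overlap (log2 fold change 0.98, SE 0.18, adjusted p = 0.187). Rin2 (chr2:145675215-145887616), an exchange factor for the endosomal GTPase Rab5, was at 36.0, 58.2, 56.3 and 60.8 CPM in the control libraries and 102, 111, 187 and 116 CPM in the CKO libraries (log2 fold change 1.29, SE 0.28, adjusted p = 0.187). Both belong to a list of 34 Ral, Rab5, Ras and Arf regulators kept, of which 7 were higher and 1 lower at p under 0.05. The members Iqsec1, an Arf6 exchange factor (log2 fold change 1.28, SE 0.42, adjusted p = 0.207), and Rgl1, a Ral exchange factor (log2 fold change 1.49, SE 0.59, adjusted p = 0.220), were also higher. Rin1, a paralog of Rin2, was the member lower at p under 0.05 (log2 fold change -1.96, SE 0.90, adjusted p = 0.241). Of the Ral GTPases themselves, Rala was at 0.23 (SE 0.24) and Ralb at -0.16 (SE 0.14). With the macrophage or the fibroblast score as a covariate Ralgapa2 kept 0.92 and 0.92, and it was 0.98 without the 3 libraries with opposed sex genes. Rin2 was at 0.88 and 1.13, Iqsec1 at 0.58 and 0.54, and Rgl1 at 0.20 and 0.26, and the list median of 0.46 was 0.03 and 0.17. Without control library 1, 4 members were higher at p under 0.05.

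Other genes of smallest p in the higher direction had moderate folds. Cyb5r4 (chr9:87022014-87077774), an ER-bound oxidoreductase, was at 31.2, 34.5, 46.9 and 49.0 CPM in the control libraries and 84.5, 64.8, 79.7 and 102 CPM in the CKO libraries (log2 fold change 1.03, SE 0.22, adjusted p = 0.187). Rbm47 (chr5:66016549-66173118), an RNA-binding protein, was at 6.54, 12.7, 10.9 and 9.23 CPM in the control libraries and 28.0, 20.4, 28.0 and 27.3 CPM in the CKO libraries (log2 fold change 1.40, SE 0.30, adjusted p = 0.187). The lowest CKO value exceeded the highest control for each. Grk3, a kinase of G protein-coupled receptors, showed log2 fold change 1.30, SE 0.32, adjusted p = 0.187, Cbl, an E3 ubiquitin ligase that takes receptor tyrosine kinases to degradation, log2 fold change 0.99, SE 0.24, adjusted p = 0.187, and Mlxip, a glucose-responsive transcription factor, log2 fold change 0.63, SE 0.15, adjusted p = 0.187. The remaining ones by the naming rule were Cmip, Clcc1, Sft2d2, Crybg1, Zfand5 and Galm, with log2 fold changes of 0.70, 0.54, 0.85, 1.44, 0.79 and 1.40.

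In the lower direction the smallest p belonged to Mbd1, a protein that binds methylated CpG and represses transcription, at 85.0, 60.6, 104 and 127 CPM in the control libraries and 44.1, 40.0, 37.4 and 39.0 CPM in the CKO libraries (log2 fold change -1.23, SE 0.21, adjusted p = 0.187). The lowest control was above the highest CKO value. Of 23 methyl-CpG and chromatin repressor genes kept, 3 were lower at p under 0.05 and 2 higher, shares near the 9.18% and 11% of all genes, with Hdac2, a histone deacetylase (log2 fold change -0.86, SE 0.27, adjusted p = 0.197), lower and Ezh1, a histone H3 methyltransferase (log2 fold change 0.99, SE 0.26, adjusted p = 0.195), higher. Slc39a13 (chr2:91061791-91070417), a zinc transporter of the secretory pathway, was at 67.0, 41.0, 44.996 and 47.9 CPM in the control libraries and 23.4, 32.3, 19.5 and 23.03 CPM in the CKO libraries (log2 fold change -1.03, SE 0.20, adjusted p = 0.187). Wls (chr3:159839672-159938664), the carrier that escorts Wnt proteins out of the cell, was at 252, 292, 325 and 413 CPM in the control libraries and 113, 175, 94.7 and 97.1 CPM in the CKO libraries, 2.67-fold lower with no overlap (log2 fold change -1.42, SE 0.33, adjusted p = 0.187). Disp1, which releases Hedgehog ligands, showed log2 fold change -0.97, SE 0.21, adjusted p = 0.187, Lrig3, a leucine-rich repeat membrane protein, log2 fold change -2.43, SE 0.52, adjusted p = 0.187, and Tle1, a Groucho corepressor, log2 fold change -1.45, SE 0.32, adjusted p = 0.187. Ccdc6, Plpp5 and 2410002F23Rik followed, with log2 fold changes of -0.76, -1.45 and -1.04. Coordinates are GRCm38, from the GENCODE annotation.

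**Figure D5:**
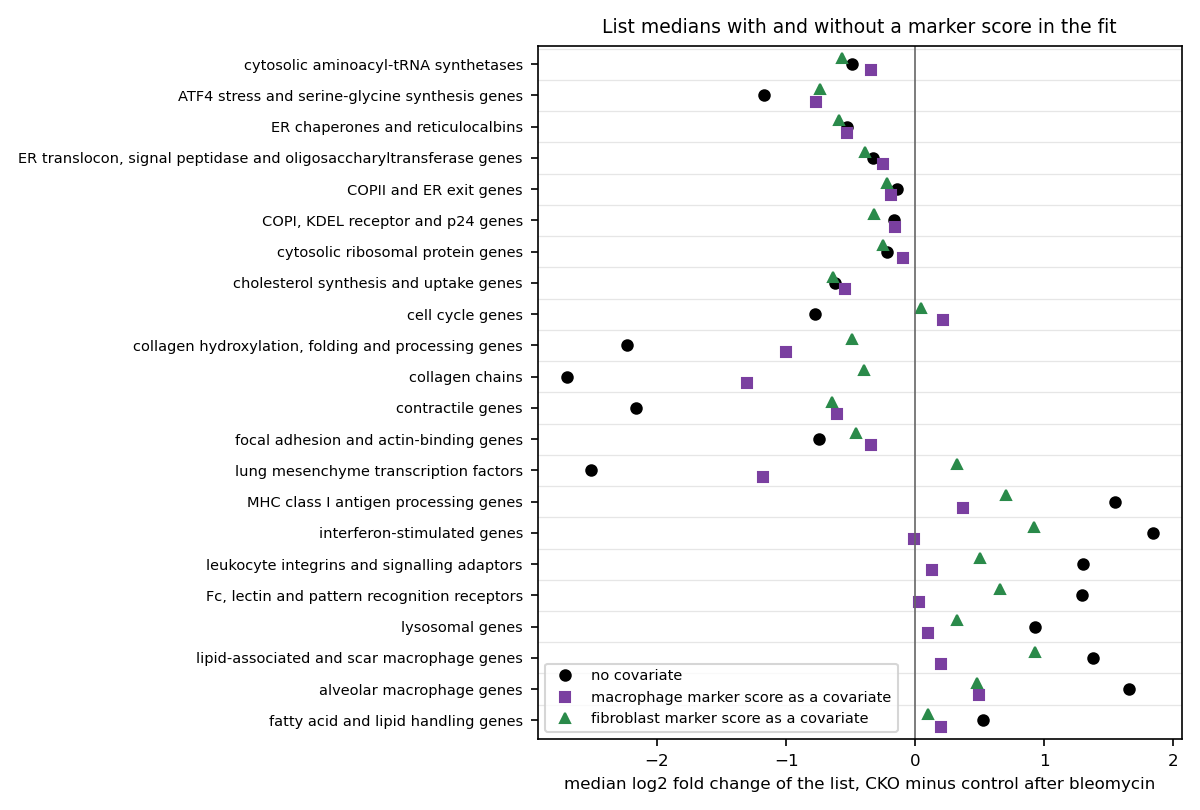
Median log2 fold change (CKO minus control after bleomycin, horizontal axis) of 22 gene lists with no covariate (circles), with the macrophage marker score as a covariate (squares) and with the fibroblast marker score (triangles). The synthetase, ATF4, chaperone, translocon and cholesterol medians stay below 0 in the 3 fits. So do the COPII, COPI, ribosomal, collagen, collagen processing, contractile and focal adhesion medians. The leukocyte and lysosomal medians move towards 0. The cell cycle median moves above 0 with both scores, and that of mesenchyme transcription factors with the fibroblast score.

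Of 39 cell cycle genes 36 were lower, but 3 at p under 0.05, a share near the 9.18% of all genes, including Tyms, thymidylate synthase (log2 fold change -1.70, SE 0.55, adjusted p = 0.207), and Ccnd3, a D-type cyclin (log2 fold change -0.99, SE 0.37, adjusted p = 0.218). Pcna, the replication clamp, was higher, at 102, 76.6, 98.5 and 91.5 CPM in the control libraries and 122, 159, 155 and 148 CPM in the CKO libraries (log2 fold change 0.67, SE 0.25, adjusted p = 0.218), with no overlap. With the macrophage score as a covariate the cell cycle median was 0.22, against -0.78 without it and -0.70 without the 3 libraries with opposed sex genes. Of 76 ribosomal protein genes 65 were lower, 7 at p under 0.05, a share near the 9.18% of all genes, with a median of -0.21. Tubulin genes outside the study's own had 2 of 9 lower at p under 0.05, Tubb2b (log2 fold change -1.30, SE 0.54, adjusted p = 0.226) and Tubb5 (log2 fold change -0.54, SE 0.25, adjusted p = 0.246).

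The same contrast after PBS gave 209 genes at p under 0.05 (1.99%), and the difference between the effects after bleomycin and after PBS was at p under 0.05 for 363 genes (3.46%), with 0 past an adjusted p of 0.05 (smallest 0.916). The bleomycin and the PBS contrasts use separate libraries, whereas the difference of effects uses the libraries of both. All come from the same fit with a shared estimate of spread. List medians after PBS were -0.15 for synthetases, -0.31 for ATF4 genes, -0.26 for chaperones, -0.75 for collagen chains and 0.28 for leukocyte integrins and adaptors. Other lists had medians after PBS further from 0 than these, given here with the median after bleomycin in brackets. They were -1.96 for fibroblast markers (-2.95), 1.66 for interferon-stimulated genes (1.84), 0.99 for class I genes (1.55), 1.72 for chemokines (0.87) and 1.45 for the C1q and interstitial macrophage list (0.14). Among them, the chemokine and C1q medians were further from 0 after PBS than after bleomycin. For Tars the effect after PBS was -0.39 and the difference -0.69 (adjusted p = 0.916). For Mbd1 these were -0.08 and -1.15 (adjusted p = 0.916), and for Cd36 0.75 and 2.06 (adjusted p = 0.916). That an effect differs between bleomycin and PBS was therefore not shown for any single gene after adjustment.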

How the data were processed

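Total RNA-Seq counts of 17 lung cell cultures labelled primary fibroblasts were analysed, with 4 Ephb4 CKO and 4 Ephb4 control libraries after bleomycin as the contrast described. The authors trimmed reads with cutadapt (version 1.18 in the labels' processing notes, another in the study's methods), aligned them to GRCm38 with HISAT2 (2.1.0) in strand-specific mode and quantified genes with StringTie. The deposited values are estimated counts per gene, written as whole numbers from coverage and read length and not normalised, so near-identical and overlapping genes share coverage by StringTie's rule. All 17 columns matched a labelled mouse by name.

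Genes above 10 CPM in at least 2 libraries were kept (10481 of 55421). Counts were tested by quasi-likelihood in edgeR (4.0.16, R 4.3.3) over all 17 libraries with 1 mean per group, TMM library sizes and Benjamini-Hochberg adjustment over all genes kept, at a threshold of 0.05. The common dispersion was 0.311. The study used DESeq2 with a batch number, which is not given per library in the sources used here, so DESeq2 (1.42.0) was an alternative. Other alternatives were limma voom (3.58.1), other size factors and filters, labelled sex, animal number series or marker scores as covariates, and leaving out each library. The deposited table holds its columns in 2 sorted runs, and fits on these runs were chosen after seeing the data. Scripts were tested on simulated counts.

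CPM values use TMM library sizes, and a marker score is the mean log2 CPM over a list's genes kept, with a prior count of 2. Where labels do not number mice, replicate numbers follow accession order and pair nothing, and the spread is that between mice. The 8 most abundant noncoding genes held 18.1% to 35.2% of the counts. Gene lists and the contrast itself were chosen with earlier results of these data known. Named genes were the 15 protein-coding genes of smallest p without overlap in each direction, the 6 largest folds in each direction among genes with p under 0.05, no overlap and at least 100 CPM in the higher group, up to 4 genes of smallest p in each list, and Ephb4. Other genes named in the text, such as Atf4, Hspa5, Calr, Ero1lb, Sec11c, Stt3b, Sar1b, Sec24b, Rin1, Rala, Ralb, Slc7a11, the remaining synthetases and the fatty acid synthesis genes, were chosen after their values were seen. Promoter windows (RefSeq, 250 bases before to 50 after each start) were matched by symbol for 8029 genes. Gene positions come from GENCODE release 21, whose gene spans begin before the RefSeq start for Asns, Tars, Hsp90b1 and Pdia6. For these genes at most 30 bases around the element, or only bases outside the GENCODE span, are shown. A few genes and sequences that met these rules are not reported here.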

Additional observations from a re-analysis of the deposited data

Results flagged for a closer look

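In each group of 4 bleomycin libraries, the CPM of every gene named and the score of every list were examined for 1 library far from the other 3, by Dixon's ratio of the gap to the range at its 95% critical value. Of 402 values examined, 47 had such a library, where chance gives about 1 in 20 groups if values are normally distributed. CPM was taken on the linear scale, so this rate need not hold for genes. Genes and lists that vary together are not independent. Control bleomycin 1 was the library apart in 27 of the 47, 18 genes and the rest list scores.

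In control bleomycin 1 the macrophage marker score, a mean log2 CPM, was 4.78 against 7.74 to 8.23 in the other 3 controls. The scores of this library that lay below those of the other controls were 2.60 for alveolar macrophage genes, 2.64 for Fc and pattern recognition receptors, 3.41 for leukocyte integrins and signalling adaptors, 4.78 for macrophage markers, 4.47 for phospholipid metabolism genes and 4.50 for small GTPase regulators. Those that lay above were 5.82 for epithelial markers, 6.62 for proteasome subunit genes and 8.68 for cytosolic ribosomal protein genes. Among single genes its CPM was highest for the amino acid and tRNA synthetase genes and others, at 43.6 for 2410002F23Rik, 204 for Asns, 115 for Eif4ebp1, 319 for Gars, 106 for Iars, 234 for Mgp, 22.6 for Pdia5, 53.2 for Plpp5, 47.1 for Psph, 148 for Shmt2, 59 for Srf, 206 for Tars and 1320 for Tubb5. Its CPM was lowest at 5.27 for Csf2ra, 31.8 for Neu1, 15 for Pfkfb4, 24.4 for Rgl1 and 17 for Tyk2. For Tars the other 3 controls held 128 to 129 CPM and for Neu1, lysosomal sialidase, 89.4 to 92.3 CPM. In control bleomycin 2 the CPM was lowest at 74.4 for Fads1 and 89.8 for Rars and highest at 49.7 for Lpin2.

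In CKO bleomycin 2 the CPM was highest at 5.6 for Epha3, 36.4 for Fads2, 9155 for Mmp12, 14.8 for Ncam1, 40.5 for Postn and 38.9 for Tubb2b, and lowest at 52 for Csf2rb2 and 20.4 for Rbm47. For Mmp12, the macrophage elastase, the other 3 CKO libraries held 1762 to 2227 CPM, and for Postn, periostin, 0.226 to 2.56 CPM. In CKO bleomycin 3 the CPM was highest at 54.9 for Aldh18a1, 3147 for Ccl9, 578 for Ear1 and 187 for Rin2 and lowest at 216 for Clec4d, and the score was highest at 7.26 for glycolysis genes. For Ear1, an eosinophil-associated ribonuclease, the other 3 held 0.361 to 18.2 CPM, and for the chemokine Ccl9 187 to 570 CPM. In CKO bleomycin 4 the CPM was highest at 41.4 for Clcc1 and 148 for Csf2ra, and the score was lowest at 0.58 for Eph receptors and ephrins.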

How the results depend on the processing

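No paired analysis was possible because the labels give the mice no shared replicate numbers. edgeR's quasi-likelihood test called 0 genes at an adjusted p under 0.05 and 2119 at an unadjusted p under 0.05. DESeq2 called 399 at an adjusted p under 0.05, and 387 with the 2 sorted runs of columns as a covariate, which was chosen after seeing the data. The count at an unadjusted p under 0.05 was 3855 with no filter beyond 1 count, 1335 with the animal number series as a covariate, 1332 in number series 12 alone, 337 with the macrophage marker score as a covariate, 406 with the fibroblast marker score, and 869 and 671 in the first and the second sorted run alone, both chosen after seeing the data. Leaving out 1 library gave 1040 (without control bleomycin 1) to 2439 (without control PBS 4), with 1159 without CKO bleomycin 4, and 0 to 1 gene at an adjusted p under 0.05, the 1 arising without control bleomycin 2. Fewer libraries or residual degrees of freedom enter several of these fits, and the cause of the other differences was not tested.

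The log2 differences that turned direction were mostly those of values near 0 and those under the marker scores. With the macrophage score the median was 0.011 for growth factor ligands and receptors, 0.078 for Eph receptors and ephrins, -0.0085 for interferon-stimulated genes and 0.22 for cell cycle genes, and the difference was 0.098 for Qars, -0.012 for Farsa and -0.042 for Farsb. With the fibroblast score the median was 0.0064 for fibroblast markers, 0.58 for endothelial markers, 0.0105 for matricellular proteins, 0.36 for growth factor ligands and receptors, 0.32 for mesenchyme transcription factors, -0.091 for oxidative phosphorylation and 0.048 for cell cycle genes. The same fit gave 0.078 for Dars, -0.20 for Farsa, -0.34 for Farsb, -0.016 for Slc7a11, 0.068 for Foxf1 and 0.067 for Hoxa5. In number series 12 alone the alveolar macrophage median was -0.10 and Marco -0.50, and with the series as a covariate Farsb was -0.026. Without the 3 libraries whose sex genes oppose the labels, Wars was 0.048 and Rala -0.072. In the first sorted run alone the lymphocyte median was -0.99, Wars 0.27 and Atf4 0.069, and in the second the oxidative phosphorylation median was -0.065, Farsa -0.063 and Farsb -0.055. Leaving out 1 library gave -0.0905 to 0.29 for Farsb, -0.25 to 0.063 for Stt3b, -0.18 to 0.11 for Wars and -0.19 to 3.13 for the median of lymphocyte markers. Among the values of single genes and lists under all alternatives, 6771 kept their direction and their side of the threshold or moved by less than the replicate spread, 143 passed the threshold that they had missed, 82 moved further and 35 turned direction. Because 0 genes passed in the main fit, these counts do not measure stability. Ephb4 at -1.998 and at -0.37 with the macrophage score counts among the 6771. The 143 arose in the DESeq2 fits, and for at most 1 gene without control bleomycin 2.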
